A study of Mus musculus with 6 samples.

Results

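Eicosanoids are signalling lipids made from arachidonic acid, and the genes described here code for 10 proteins of their synthesis and sensing: Pla2g4a, Alox12, Alox15, Alox5, Alox5ap, Ltc4s, Ptgs1, Ptgs2, Tbxas1 and Tbxa2r. All 10 were found by symbol among the 43346 genes of the table, and all 10 passed the filter on low counts that left 18757 genes for testing. The genes were chosen by name with the difference between radiated and non-radiated femur already known, so that difference is given for them as a description, and the count of calls printed for it supports nothing. In that description Alox12 had the largest decrease of the 10, to 2.70-fold below its non-radiated level, 8 others were lower by less, and Ltc4s was higher.

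The libraries came from C57BL/6 mice aged 4 months. A focal X-ray dose of 24 Gy, given at 6.6 Gy per minute, was aimed at 5 mm of the distal metaphysis of the right femur, and the left femur was the control (3 libraries each). Values of single libraries are given in the order of their replicate numbers, control femur first. The metaphysis is the marrow-rich end of the bone shaft next to the growth plate. Whole bone pieces with their marrow were homogenized on day 21, before the bone loss that was seen at day 28. The control leg belonged to an animal whose other leg was radiated, so the comparison holds no animal without radiation. The labels do not say how many mice gave the libraries, and p-values measure the spread between these libraries.

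Gene counts summed to 34034251 to 48708383 per library. In non-radiated library 2 the single row AY036118 took 32.9% of the counts, against 0.321% to 5.61% in the others. Markers of bone-forming cells, cartilage, erythroid cells, B cells and megakaryocytes were all detected, and none of the 98 marker genes used was at 0 in every library. The summed CPM (counts scaled to a common library size, adjusted between libraries by the trimmed mean of M-values, TMM) of 6 skeletal muscle genes was 119 to 246 in non-radiated and 137 to 1699 in radiated libraries.

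In the eicosanoid pathway, cytosolic phospholipase A2 (Pla2g4a) frees arachidonic acid from membranes. Lipoxygenases then oxidize it: 12-lipoxygenase (Alox12) is the platelet enzyme, 12/15-lipoxygenase (Alox15) is known from eosinophils and resident macrophages, and 5-lipoxygenase (Alox5), with its helper protein FLAP (Alox5ap), opens the leukotriene route in neutrophils, macrophages and mast cells. Leukotriene C4 synthase (Ltc4s) makes the cysteinyl leukotrienes. Cyclooxygenases 1 and 2 (Ptgs1, Ptgs2) make prostaglandin H2, which thromboxane synthase (Tbxas1) turns into thromboxane A2, and the thromboxane receptor (Tbxa2r) triggers platelet activation and vessel constriction. Megakaryocytes, the marrow cells that shed platelets, carry much of this platelet equipment as RNA.

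The promoters of 3 members are shown because the genes took different courses: Alox12 (the largest decrease), Ptgs1 (the other platelet oxygenase, lower by less) and Ltc4s (the member that was higher). Each line gives the 250 bases before the RefSeq transcript start on build GRCm38.p6, 5′ to 3′ along the gene. The windows are chr11:70255371-70255620 (minus strand), chr2:36230176-36230425 (plus strand) and chr11:50238533-50238782 (minus strand). Capitals mark 3 short motifs bound by factors of the megakaryocyte lineage, on either strand: the ETS core GGAA, the GATA motif in the forms AGATAA and TGATAA, and the RUNX motif TGTGGT.
Alox12: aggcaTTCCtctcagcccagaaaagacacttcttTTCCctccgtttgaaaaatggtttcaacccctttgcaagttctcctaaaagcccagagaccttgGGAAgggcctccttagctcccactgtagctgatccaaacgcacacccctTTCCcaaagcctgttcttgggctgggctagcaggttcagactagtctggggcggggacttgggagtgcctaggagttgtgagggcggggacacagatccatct
Ptgs1: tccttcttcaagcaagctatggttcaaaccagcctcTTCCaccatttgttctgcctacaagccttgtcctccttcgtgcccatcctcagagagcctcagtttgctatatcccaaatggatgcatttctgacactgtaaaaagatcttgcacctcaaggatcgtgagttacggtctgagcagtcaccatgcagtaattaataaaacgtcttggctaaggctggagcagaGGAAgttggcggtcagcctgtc
Ltc4s: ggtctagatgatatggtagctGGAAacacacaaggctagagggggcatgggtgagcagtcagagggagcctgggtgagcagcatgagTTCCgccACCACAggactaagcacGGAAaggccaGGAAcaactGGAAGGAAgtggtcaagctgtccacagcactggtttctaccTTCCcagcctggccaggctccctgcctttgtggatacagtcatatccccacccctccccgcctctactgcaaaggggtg

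No motifs overlapped in these windows. GGAA was in each of the 10 windows found for 8 of the members, and 93.4% of 32851 promoters of the same length hold it. AGATAA is in 9.99% and TGATAA in 7.94% of those promoters, and 9 of the 10 windows held neither. TGTGGT, in 14% of promoters, was in the windows of Ltc4s and Ptgs2. A match is a string of letters and not a bound site.

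Of the 10 members, 6 were called lower (Alox12, Alox15, Alox5ap, Ptgs1, Tbxas1 and Pla2g4a) and 1 higher (Ltc4s) at an edgeR quasi-likelihood adjusted p under 0.05, where 3.24% of all genes tested were called lower, 4.56% higher and 7.8% in either direction. Since this contrast entered the choice of genes, nothing is read from that count. It also has limits: the calls of Alox15, Alox5ap and Ltc4s were absent without control library 1, control library 2 or radiated library 1. Alox15 and Alox5ap were also not called without radiated library 3, and Alox15 not by limma-voom. Ltc4s was called neither without radiated library 2 nor with the muscle covariate, which was added after seeing the data. Calls were gained as well, for Tbxa2r by the Wald test of DESeq2 and by limma-voom, and for Alox5 with the muscle covariate. With library totals as the sole scaling, so that AY036118 weighed on it, 2 members were called, Alox12 and Ltc4s. The median over all genes then stood at 0.19 on the log2 scale, and no member changed sign under any setting. Radiated and control values were fully apart for 9 of the 10 members, all but Ptgs2, against 25.9% of all genes tested. The median log2 fold change of the members was -0.44, beside a median near 0 (0.0023) over all genes tested. In bulk tissue, fewer cells of a type and less RNA per cell cannot be told apart.

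**Figure D1:**
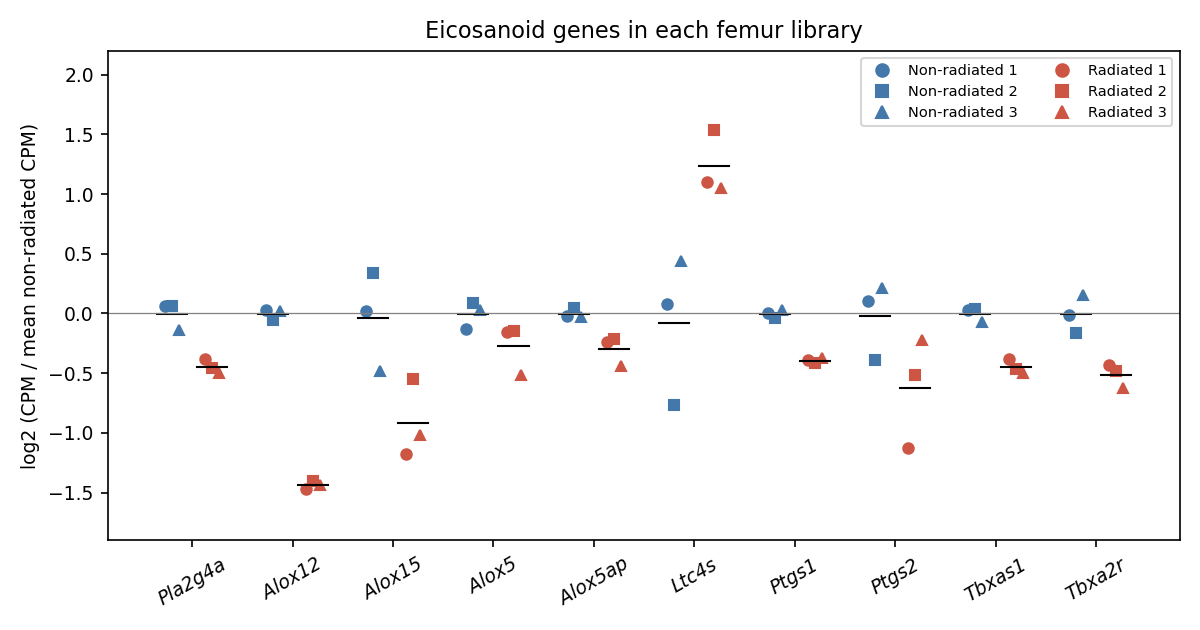
Each point is 1 library's level of 1 gene, as log2 of its CPM over the gene's mean CPM in the 3 non-radiated libraries; blue is non-radiated, red is radiated, and black bars are the means of the points in each group. Alox12 sits near -1.4 in all 3 radiated libraries, Ltc4s lies above 0 in them, and Ptgs2 is the one gene whose groups overlap.

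Alox12 (ENSMUSG00000000320, chr11:70241457-70255353, minus strand) was the member with the largest difference and one of the steadiest between replicates. It was at 105, 99.7 and 105 CPM in control femur, against 37.3, 39.2 and 38.2 CPM in radiated femur. The lowest non-radiated library lay far above the highest radiated one. Group means were 103 ± 3.10 and 38.2 ± 0.939 CPM (mean ± SD, n = 3 each), a log2 fold change of -1.43 (SE 0.05). These levels rest on 1412 to 4451 counts per library. Leaving out any 1 library kept the log2 fold change between -1.47 and -1.42, and within the numbered pairs it was -1.49, -1.35 and -1.46.

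The Alox12 difference was close in size to the median of megakaryocyte and platelet markers, which ranged widely. The 14 genes of that list, among them Itga2b and Gp5 of platelet surface receptors and the chemokine Pf4, fell and passed the test. The list's median was -1.43 on the log2 scale, from -1.63 (Gp6) to -0.54 (Gp1bb), and none of its genes was at 0. Their summed CPM was 2130 to 2183 in non-radiated and 807 to 916 in radiated libraries. The log2 ratio of Alox12 to that sum was -4.34, -4.45 and -4.37 in control femur, against -4.53, -4.55 and -4.40 in radiated femur, and the groups overlapped. The mean ratio differed by -0.10. With the markers averaged on the log2 scale instead of summed, the difference was -0.08.

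Among 15571 non-member genes averaging 1 CPM or more, the 5 with a profile nearest to that of Alox12 over the 6 libraries were Med12l, Slc35d3, Clec1b, Itga2b and Mrvi1. Nearness was the root mean square difference of log2 CPM, each gene centred on its non-radiated mean, and it ran from 0.0369 for Med12l to 0.0663 for Mrvi1. Clec1b codes for the platelet receptor CLEC-2 and Itga2b for the αIIb chain of the platelet fibrinogen receptor. Slc35d3 codes for a transporter-like protein needed for platelet dense granules. Their log2 fold changes lay between -1.48 (Slc35d3) and -1.41 (Mrvi1). The measure is dominated by the gap between the groups, so it is a description of size rather than of covariation within a group.

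**Figure D2:**
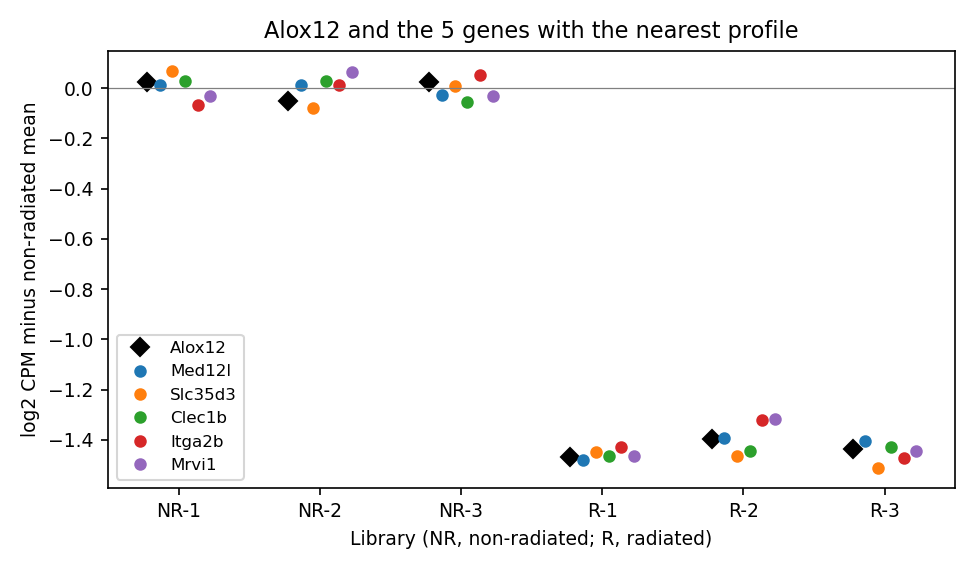
Points give log2 CPM minus the gene's non-radiated mean in each of the 6 libraries, for Alox12 (black diamonds) and the 5 genes with the nearest profile (coloured circles). All 6 genes lie between -1.51 and -1.32 in the radiated libraries and within 0.08 of 0 in the non-radiated ones.

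The other lipoxygenase genes of the same chromosome were far less abundant. Alox12 and Alox15 lie near each other on chromosome 11, with the epidermal-type Alox12e (chr11:70315610-70322628) between them, and Alox8, Alox12b and Aloxe3 form another group near chr11:69125896-69197843. Alox12e, Alox8 and Aloxe3 passed the filter on 11 to 51 counts per library, and none was called (edgeR adjusted p 0.309, 0.257 and 0.698). Alox12b was under the filter, with 1 count in all.

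Alox15 (ENSMUSG00000018924, chr11:70344152-70352031, minus strand) varied widely between replicates, with a coefficient of variation of 27.5% in non-radiated and 23.5% in radiated libraries. It was at 17.6, 22.0 and 12.5 CPM in control femur, against 7.69, 11.9 and 8.60 CPM in radiated femur. The lowest non-radiated and the highest radiated library were close (12.5 and 11.9 CPM). Means were 17.4 ± 4.78 and 9.39 ± 2.21 CPM (mean ± SD, n = 3 each), a log2 fold change of -0.88 (SE 0.22). Its order within the non-radiated group, highest in library 2 and lowest in library 3, was also that of the summed eosinophil markers, at 692 CPM in library 2, 609 in library 1 and 477 in library 3. In the radiated group the orders differed: Alox15 was lowest in library 1, and the eosinophil sum, at 363, 443 and 354 CPM, was lowest in library 3. The non-radiated order was not particular to eosinophils, as the summed neutrophil, adipocyte and skeletal muscle markers shared it.

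Of 9 eosinophil markers, 8 had a negative log2 fold change and 3 were called lower (Prg2, Epx and Ear1, all of eosinophil granules), with a list median of -0.52 and none at 0. The eosinophil sum was 354 to 443 CPM in radiated libraries, below all non-radiated values. Of 11 macrophage and monocyte markers, 6 were called higher and Cd163 was called lower, with a list median of 0.42. Their part in the Alox15 difference was not tested.

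For the leukotriene route, Alox5 (ENSMUSG00000025701, chr6:116410077-116461178, minus strand) was at 74.4, 86.5 and 82.8 CPM in control femur, against 72.9, 73.3 and 56.9 CPM in radiated femur. Non-radiated library 1 was nearly level with radiated libraries 1 and 2. Its log2 fold change was -0.26 (SE 0.10). The muscle covariate moved the value to -0.44.

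Alox5ap (ENSMUSG00000060063, chr5:149265058-149288045, plus strand) was at 121, 126 and 120 CPM in control femur, against 104, 105 and 90.2 CPM in radiated femur. All radiated values were below all non-radiated ones, with radiated library 3 the lowest, as for Alox5. The log2 fold change was -0.30 (SE 0.07). For comparison, 12 of 12 neutrophil markers had negative log2 fold changes, with a list median of -0.32, 1 of them called (Cxcr2, a chemokine receptor), and none at 0. Over all genes tested, 9280 of 18757 were negative and 7.8% were called. The summed CPM of the neutrophil markers was 15852 to 19984 in non-radiated and 12502 to 14760 in radiated libraries. Of the other cells named for this route, macrophage and monocyte markers went the other way, with a list median of 0.42. Mast cell and basophil markers had a list median of -0.57. Whether any of these cells account for the Alox5 and Alox5ap differences was not tested.

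Ltc4s (ENSMUSG00000020377, chr11:50236469-50238616, minus strand) was the member that stood higher in radiated femur, from few counts. It had 34, 13 and 51 counts in control femur, or 0.933, 0.519 and 1.20 CPM. It had 72, 137 and 82 counts in radiated femur, or 1.90, 2.57 and 1.84 CPM. The groups did not overlap, and the mean was 2.37-fold higher, a log2 fold change of 1.21 (SE 0.28). Non-radiated library 2, the library rich in AY036118, held the lowest value, and without it the log2 fold change was 0.96. Ltc4s overlaps the antisense transcript Gm26542, which had up to 30 counts, and the sources used here do not say whether the counting used the strand.

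Ltc4s is known from mast cells, basophils, eosinophils and macrophages, and markers of these cells went different ways. Of the 8 mast cell and basophil markers tested, 6 fell. They were the basophil proteases Mcpt8 (log2 fold change -0.56) and Prss34 (-0.60), with Cpa3 (-0.58), Ms4a2 (-0.59), Fcer1a (-0.58) and Hdc (-0.32). The mast cell tryptase Tpsb2 rose, from 0.0661 ± 0.0491 to 0.341 ± 0.0407 CPM (mean ± SD, n = 3 each, edgeR adjusted p 0.0254). It had 2, 3 and 1 counts in control femur, against 13, 16 and 17 in radiated femur. Tpsb2 passed the filter only through the radiated libraries, so nothing is read from its call. Of the 11 macrophage and monocyte markers, C1qa, C1qb, C1qc, Trem2, Cd68 and Adgre1 rose by 0.42 to 0.77 on the log2 scale. Cd163, of the same list, fell by 0.91 (edgeR adjusted p 0.00193). Csf1r (log2 fold change 0.30), Mrc1 (0.26), Ly6c2 (-0.27) and Ccr2 (-0.14) were not called. The summed mast cell and basophil level was 198 to 214 CPM in non-radiated and 138 to 159 in radiated libraries, a sum made up mostly of Hdc, Prss34, Mcpt8 and other genes that fell. The mast cell proteases Cma1 and Mcpt4, with 1 to 22 counts per library, had means 2.64-fold and 2.36-fold higher in radiated femur, Cma1 without passing the test (edgeR adjusted p 0.129) and Mcpt4 under the filter. Like Tpsb2, Cma1 passed the filter only through the radiated libraries, so nothing is read from its difference or its test. The part of any of these cell types in the Ltc4s difference was not tested.

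For the cyclooxygenase and thromboxane route, Ptgs1 (ENSMUSG00000047250, chr2:36230426-36252272, plus strand) varied least between replicates of all members, with a coefficient of variation of 2.33% in non-radiated and 1.44% in radiated libraries. It was at 105, 103 and 108 CPM in control femur, against 80.1, 78.9 and 81.2 CPM in radiated femur. The gap between groups was several times the spread within them. The log2 fold change was -0.39 (SE 0.05), and -0.39, -0.38 and -0.41 within the numbered pairs. Alox12 and Ptgs1 thus had similar CPM in non-radiated femur (103 and 105), while in radiated femur Alox12 was at 38.2 and Ptgs1 at 80.1.

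Tbxas1 (ENSMUSG00000029925, chr6:38875404-39084585, plus strand) was at 86.0, 86.9 and 80.6 CPM in control femur, against 64.8, 61.2 and 59.9 CPM in radiated femur. Its groups were well apart, with a log2 fold change of -0.45 (SE 0.06). Tbxas1 overlaps the abundant gene Hipk2 on the other strand, which had up to 12045 counts, so its counts are uncertain where the strand was not used.

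Tbxa2r (ENSMUSG00000034881, chr10:81328732-81335171, plus strand) was much less abundant, at 4.69, 4.23 and 5.29 CPM in control femur, against 3.51, 3.39 and 3.07 CPM in radiated femur. Its groups did not overlap, and its log2 fold change was -0.51 (SE 0.14).

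Ptgs2 (ENSMUSG00000032487, chr1:150100031-150108227, plus strand), the inducible cyclooxygenase, was close to the limit of what this depth can compare. It had 43, 21 and 54 counts in control femur, against 19, 41 and 42 in radiated femur. The corresponding levels were 1.18, 0.838 and 1.27 CPM, and 0.502, 0.768 and 0.941 CPM. Radiated library 3 was above non-radiated library 2, so the groups overlapped, and the log2 fold change of -0.58 had an SE of 0.28.

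Upstream of all these routes, Pla2g4a (ENSMUSG00000056220, chr1:149829618-149961290, minus strand) was at 43.3, 43.3 and 37.7 CPM in control femur, against 31.8, 30.2 and 29.4 CPM in radiated femur. The groups were apart, with a log2 fold change of -0.44 (SE 0.08). Its size was close to that of Ptgs1 and Tbxas1.

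Set against the megakaryocyte markers, the members other than Alox12 were relatively higher in radiated femur. Relative to the summed markers, Ptgs1 was higher by 0.94 on the log2 scale, Tbxas1 by 0.88, Tbxa2r by 0.82 and Pla2g4a by 0.89, with no overlap between groups. Alox5 and Alox5ap, of the leukotriene route, were higher by 1.06 and 1.03 on this ratio, and Ltc4s by 2.65. For Alox15 (0.46) and Ptgs2 (0.73) the groups overlapped on this ratio. These ratios come from the same contrast and were not tested. They show how far each gene's level departed from that of the 14 markers, whose sum differed by -1.33. A gene with no change of its own would therefore also stand higher on this ratio. The gaps between groups follow largely from the fall of the markers, so nothing particular to these genes is read from them.

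**Figure D3:**
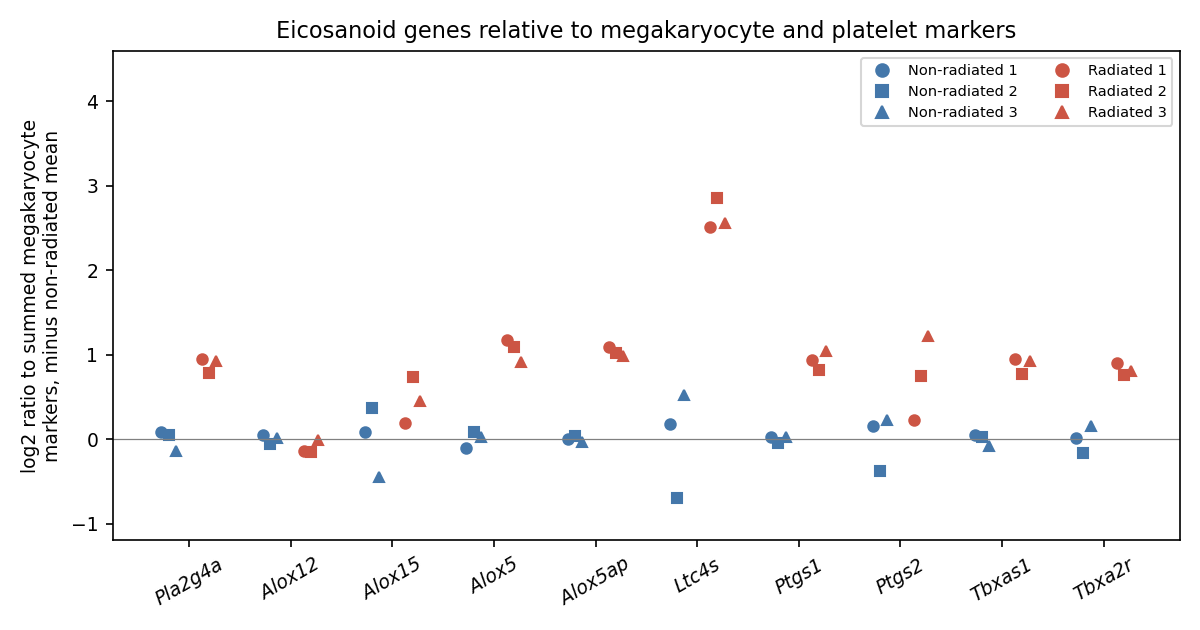
Each point is 1 library's log2 ratio of a gene's CPM to the summed CPM of 14 megakaryocyte and platelet markers, minus the gene's non-radiated mean ratio; blue is non-radiated, red is radiated. Red and blue points of Alox12 lie together near 0, while those of Ptgs1, Tbxas1, Tbxa2r, Pla2g4a, Alox5 and Alox5ap stand about 1 apart.

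Compared per length, as CPM per kilobase, Alox5ap was the most abundant member in non-radiated femur, at 144 ± 3.87, followed by Ptgs1 (27.1 ± 0.630), Alox12 (25.3 ± 0.759) and Alox5 (19.8 ± 1.5; mean ± SD, n = 3 each). Tbxas1 (9.30 ± 0.374), Alox15 (7.08 ± 1.95) and Pla2g4a (6.48 ± 0.508) came next, and the ranges of Alox15 overlapped those of both its neighbours. Tbxa2r (2.69 ± 0.300), Ltc4s (1.20 ± 0.468) and Ptgs2 (0.240 ± 0.05) were lowest. The remaining neighbours in this order had ranges that did not overlap.

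In radiated femur Alox12 stood at 9.35 ± 0.230 CPM per kilobase, below Alox5 at 16.5 ± 2.27 (mean ± SD, n = 3 each), which exchanged their places. Ltc4s, at 2.86 ± 0.548, stood above Tbxa2r, at 1.89 ± 0.130, and Pla2g4a, at 4.76 ± 0.190, above Alox15, at 3.83 ± 0.901, although these last ranges overlapped. Alox15 and Ltc4s also overlapped each other. The top and bottom of the order, Alox5ap with Ptgs1 and Ptgs2, were as in non-radiated femur.

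**Figure D4:**
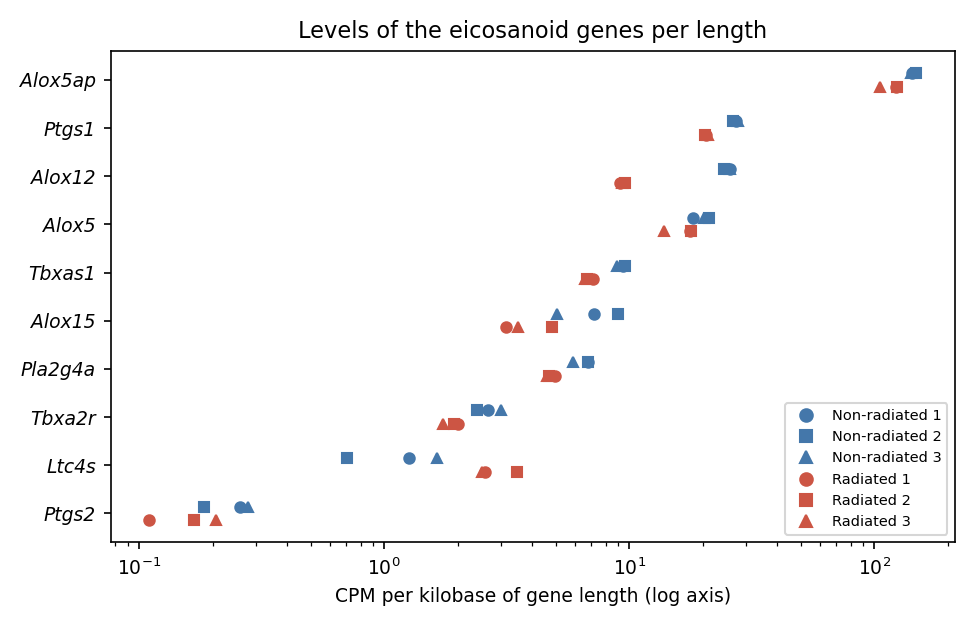
Points give CPM per kilobase of gene length on a log axis for each member in each library, ordered by the non-radiated mean; blue is non-radiated, red is radiated. Alox12 lies near Ptgs1 in non-radiated femur and below Alox5 in radiated femur, and Ltc4s is the gene whose red points lie to the right of the blue ones.

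The rest of the pathway was described with 8 lists, drawn from general knowledge of the route, that hold 71 genes found in the table, of which 58 passed the filter. In edgeR's quasi-likelihood test 5 rose and 6 fell at an adjusted p under 0.05, and 47 did not pass, with a median log2 fold change of -0.01. The share called, 11 of 58, stands beside 7.8% over all genes tested. These lists were chosen with earlier results of these data known, so nothing is read from that share. With control library 1 left out 3 of the 11 calls remained, with control library 2 left out 3, and with control library 3 left out 8. With radiated library 1, 2 or 3 left out, 2, 6 and 5 remained. Cysltr2 and Ephx1 were the 2 genes called in all of these fits.

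Among receptors, Cysltr2, for cysteinyl leukotrienes, fell most clearly. It was at 13.1, 11.7 and 11.6 CPM in control femur, against 6.37, 5.60 and 6.43 CPM in radiated femur, a 1.98-fold difference with the groups far apart (log2 difference -0.99 with SE 0.11, edgeR adjusted p 0.000785). The other cysteinyl leukotriene receptor, Cysltr1, was at 2.88 ± 0.372 and 3.30 ± 0.426 CPM (mean ± SD, n = 3 each) and was not called (edgeR adjusted p 0.543). Fpr2, a receptor for lipoxin A4 and formyl peptides, fell by 0.36 on the log2 scale (edgeR adjusted p 0.0257), and it overlaps its paralog Fpr3 on the same strand. Leaving out control library 1, control library 2 or radiated library 1 ended its call. The leukotriene B4 receptors Ltb4r1 and Ltb4r2 had log2 fold changes of -0.29 and -1.0 without a call (edgeR adjusted p 0.0923 and 0.0551).

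Of 7 prostanoid receptors tested besides Tbxa2r, 2 were called lower and none higher, where 3.24% of all genes tested were called lower and 4.56% higher. Neither call was kept in every fit without a library, and nothing is read from that count. Ptgir, the prostacyclin receptor, which restrains platelets, was at 15.2, 16.0 and 17.2 CPM in control femur, against 11.1, 13.1 and 10.2 CPM in radiated femur (log2 fold change -0.49, SE 0.11, edgeR adjusted p 0.0249), a call kept in 1 of the 6 fits without a library, that without radiated library 2. Ptger3, a receptor for prostaglandin E2, fell by 0.57 (edgeR adjusted p 0.0430), a call lost whichever library was left out, and also in the blocked fit (edgeR adjusted p 0.0585, within 0.0368 to 0.654 over all settings). Ptger4, another receptor for prostaglandin E2, was at 15.8 ± 0.195 and 16.2 ± 0.831 CPM (mean ± SD, n = 3 each, edgeR adjusted p 0.825).

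Among the enzymes after the members, Lta4h, which makes leukotriene B4, was at 252, 289 and 244 CPM in control femur, against 218, 208 and 203 CPM in radiated femur. The groups did not overlap (log2 fold change -0.32, SE 0.07, edgeR adjusted p 0.0286), and the call was kept in 1 of the 6 fits without a library, that without non-radiated library 3. Hpgds, the haematopoietic synthase of prostaglandin D2, rose from 24.9 ± 2.85 to 34 ± 2.64 CPM (mean ± SD, n = 3 each), or 0.45 on the log2 scale with an SE of 0.10 (edgeR adjusted p 0.0238). Fam213b, a prostaglandin F synthase, rose by 0.45 on the log2 scale (edgeR adjusted p 0.0402), a call kept in 1 of the 6 fits, that without non-radiated library 3. Leaving out control library 1, radiated library 1 or radiated library 3 ended the Hpgds call. Ptges3, a cytosolic prostaglandin E synthase that is also the Hsp90 partner p23, fell by 0.22 (edgeR adjusted p 0.0402), a call kept in 2 of the 6 fits, those without non-radiated library 3 or radiated library 3. The Ptges3 call was lost in the fit with numbered pairs as a block (edgeR adjusted p 0.0768, within 0.0183 to 0.955 over all settings).

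Ptgis, the prostacyclin synthase of vessel walls, was at 22.3, 17.3 and 25.6 CPM in control femur, against 17.2, 14.2 and 15 CPM in radiated femur. Non-radiated library 2 and radiated library 1 were nearly level, and it was not called (log2 fold change -0.50, edgeR adjusted p 0.0619). Fitting the replicate block made it pass (adjusted p 0.0277), as did leaving out non-radiated library 2 (adjusted p 0.0147), over a range of 0.00255 to 0.603. Ptges, the inducible prostaglandin E synthase (edgeR adjusted p 0.512), and Hpgd, which degrades prostaglandins (edgeR adjusted p 0.203), were not called. Ptgds was under the filter, with 0 to 6 counts per library.

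In the lists for the release step (15 genes tested) and the epoxide branch (7 tested), which leave out Pla2g4a, 3 genes were called higher and none lower. Over all genes tested, 4.56% were called higher and 3.24% lower, and nothing is read from the counts of these lists. Log2 fold changes were negative for 7 genes of the release list and 1 of the epoxide list. Ephx1, the microsomal epoxide hydrolase, which also handles foreign compounds, was at 13.9, 14.8 and 13.1 CPM in control femur, against 32.1, 28.8 and 26.5 CPM in radiated femur. That is 2.10-fold higher with a wide gap between groups (log2 difference 1.07 with SE 0.09, edgeR adjusted p 0.000169). The other 6 genes tested in the epoxide list were not called, among them Ephx2 (log2 fold change 0.38, edgeR adjusted p 0.117). The secreted phospholipase Pla2g2d rose by 0.91 (edgeR adjusted p 0.0408), a call lost whichever library was left out. The lysosomal phospholipase Pla2g15 rose by 0.31 (edgeR adjusted p 0.0129), a call lost without non-radiated library 2 (adjusted p 0.0602) or radiated library 1 (0.0638), over a range of 0.00162 to 0.204.

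**Figure D5:**
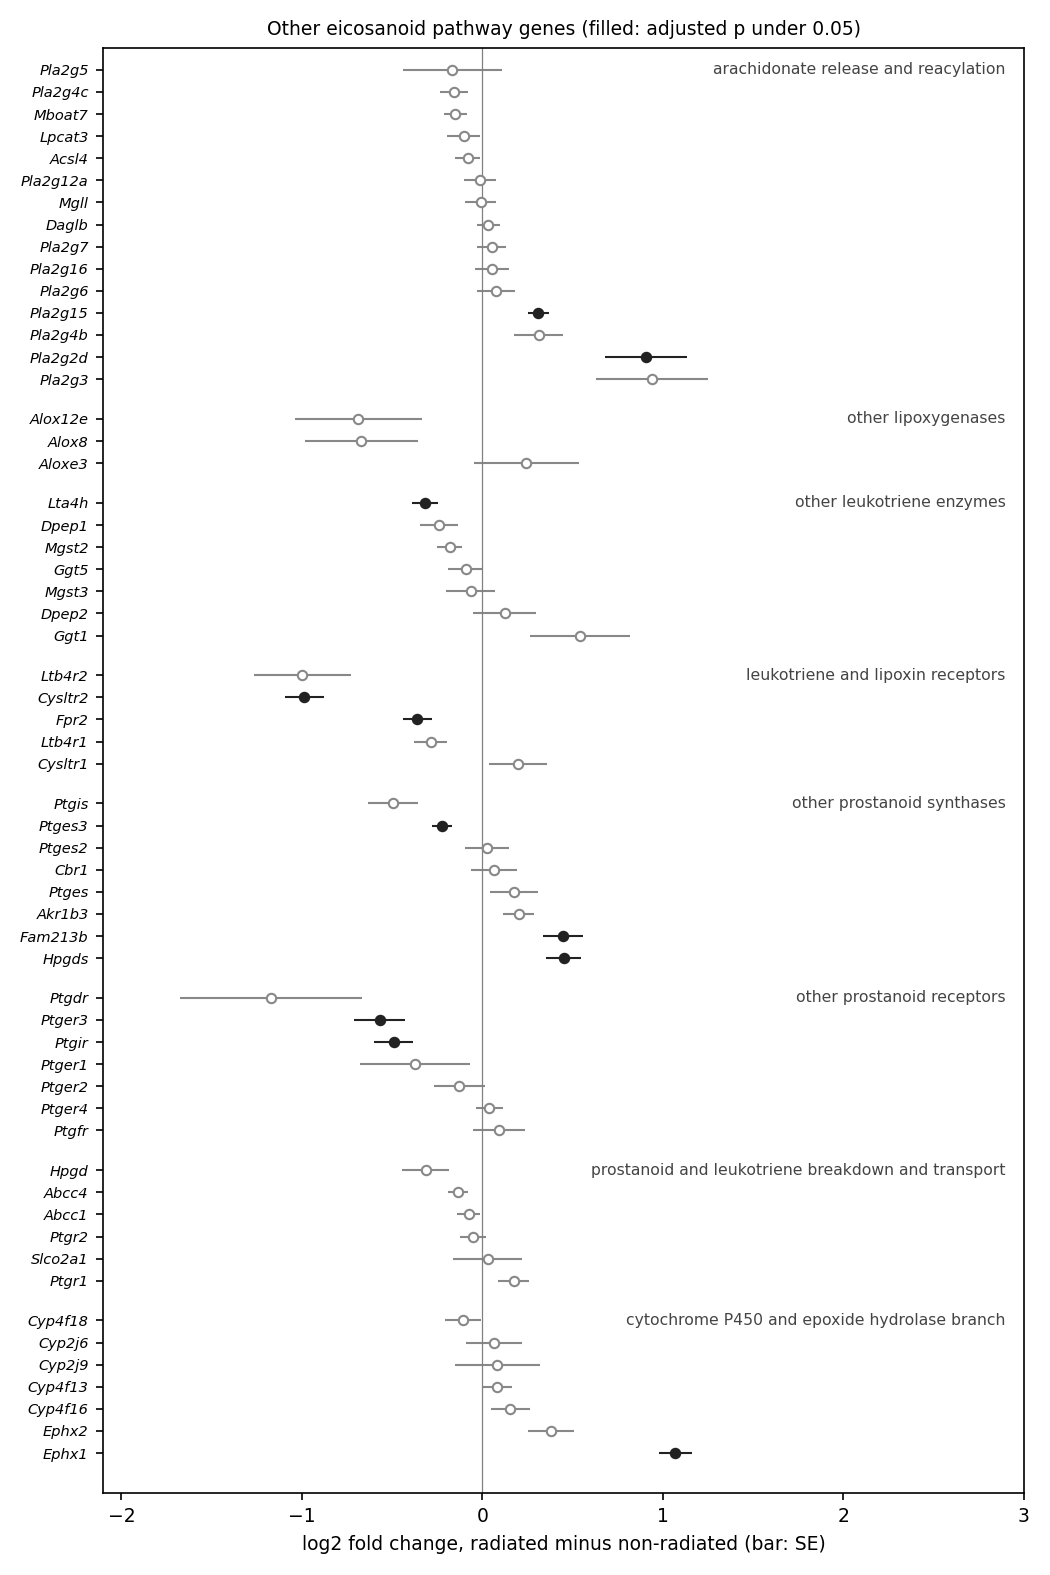
Points give the log2 fold change (radiated minus non-radiated) of the 58 tested genes of the other pathway lists, grouped by role, with bars of 1 SE; filled points have an edgeR adjusted p under 0.05. Ephx1 at 1.07 and Cysltr2 at -0.99 lie farthest from 0 among the 11 filled points.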

How the data were processed

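RNA-seq of 6 femur libraries was analysed from 1 deposited table of 43346 genes. The counts deposited by the authors are raw whole numbers per gene and library, per the file headers. The RPKM values deposited by the authors, scaled by gene length and library, were not used for any result. STAR 2.5.2b, Subread featureCounts and build mm10 are named in the submitters' processing notes; the annotation, filters and use of strand are not given in the sources used here, although the kit is stranded, per the labels' protocols. Coordinates are those of the table, on mm10, and promoters are from RefSeq (GRCm38.p6).

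The filter was filterByExpr (minimum count 10, total 15) and tested with edgeR 4.0.16 in R 4.3.3: TMM scaling, glmQLFit and glmQLFTest with group as the only term, Benjamini-Hochberg adjustment over 18757 genes, and calls at an adjusted p under 0.05. The SE is the log2 fold change divided by the square root of F. CPM per kilobase uses the deposited gene length. Fits were tested on simulated data. Alternatives were a replicate block, DESeq2 1.42.0 size factors, library totals with and without AY036118 and Gm26917, no filter, a floor of 1 CPM on the mean, the Wald test of DESeq2, voom of limma 3.58.1, each library left out and, chosen after seeing the data, a muscle covariate.

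Same-numbered libraries deviated together from their group means (correlations across genes 0.186, 0.349 and 0.204 for numbers 1, 2 and 3; different numbers -0.221 to 0.0203), so the blocked alternative was read as a paired one, and all main values come from the unblocked fit. Replicates differed by more than sampling noise (chi-square per degree of freedom 16.6 to 580). The members, lists, motifs and alternatives were chosen with earlier results of these data known. Named genes were all members, called pathway genes, 10 enzymes or receptors next to the members, the 5 genes nearest to Alox12 and up to 3 markers a list. The other lipoxygenases, Ltb4r2, Ephx2 and markers beyond 3 of a list were named after their values were seen. Adgre1 was matched by gene ID to an older symbol, and Alox15b is listed as Alox8.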

Additional observations from a re-analysis of the deposited data

How the results depend on the processing

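Of 149 values of single members under alternatives, 138 moved by less than 1 SD between replicates, 11 moved by more and none changed sign. Library totals alone gave 7 of the 11. The SD was each gene's own, so members that varied widely between replicates could shift farther without counting as moved. Alox15 ranged from -1.16 to -0.65 and Ltc4s from 0.96 to 1.49 over all settings, and neither counted as moved. Scaling by library totals alone called 1 member lower and 1 higher, 2 pathway genes higher and 1 lower, with 85.4% of all called genes higher against 58.5% with TMM. The muscle covariate called no member higher (0) and 2 pathway genes higher. With each library left out, the counts were 0 to 1 members called higher, 4 to 6 members lower, 1 to 4 pathway genes higher and 1 to 4 lower, and 764 to 1376 genes in all against 1463. Fewer libraries enter these fits. For the other settings the cause was not tested. With the replicate block, 6 members were called lower and 1 higher, and 5 pathway genes each way; beside Ptges3, Ptger3 and Ptgis it changed no call of a member or named pathway gene. Ptgs2 had no value with a mean of at least 1 CPM. Depth limits Ptgs2 and Ltc4s most, at 13 to 137 counts per library.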
